A study of Mus musculus with 23 samples.

Results

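The genes described here drive the cell division cycle and the copying of DNA, 39 gene symbols in all. They were listed by known function, by a rule that uses no measured value but was written with earlier results of these data known. The array carried a probe set annotated to that symbol alone for 35 of them, with 44 probe sets among the 12502 of the array, and Ccnd3, Tyms, Ccnb1 and Bub1b were skipped because no such probe set was listed. Mouse embryonic stem (ES) cells of 4 lines, each given 3 plasmids, were profiled on 23 oligonucleotide arrays that read total RNA. SRF-VP16 is a fusion of serum response factor, a transcription factor of cytoskeletal and immediate-early genes, with the strong activation domain VP16. The lines were wild-type E14 cells, E99 cells labelled +/-, and the E81 and E100 cells, both labelled -/-. Which gene +/- and -/- refer to is not stated in the labels, nor whether E81 and E100 are single clones. In every line the plasmids were an empty vector, SRFdM-VP16, which the labels call a control, and SRF-VP16, and the RNA of every group was taken 72 hours after transfection. That gives 12 groups of 2 arrays, but E100 with vector has only 1.

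Cells commit to division in G1, when D-type cyclins with Cdk4, and then cyclin E with Cdk2, release E2F factors to switch on the genes of DNA synthesis. The MCM helicase is loaded at origins with the help of Cdc6, Pcna clamps the polymerases to DNA, and ribonucleotide reductase and thymidine kinase supply nucleotides. Mitotic genes are switched on later, in G2, through CHR and CCAAT elements, with MuvB-type complexes acting at the CHR. Mouse ES cells are known for a short G1 and for cyclin E and Cdk2 activity that persists through the cycle.

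The array median of intensity ran from 54 to 209, and 0 or less was recorded for 23.4% to 43.6% of its probe sets. E81 SRFdM-VP16 replicate 1 stood apart, with the highest of those shares, the lowest array median, a Gapdh 5' to 3' log2 ratio of -0.93 against a median of 0.20 over all arrays, and a median correlation of 0.878 with the other arrays against 0.931. All 5 genes listed as reporting SRF-VP16 activity (Igfbp6, Egr1, Acta1, Tagln and Nppb) passed the test as higher in E81 and in E100. In wild type and in E99 all 5 changes were above 0 and 1 passed. Tagln alone of the 5 overlapped between control and SRF-VP16 arrays in wild type. It was read there at 264 and 9417 with vector and at 591 and 11738 with SRFdM-VP16, against 16237 and 5805 with SRF-VP16. The genes were listed with earlier results of these data known, so this is no independent check of the plasmid labels. The ES cell markers Pou5f1, Sox2, Zfp42 and Nanog were above the floor in all 23 arrays, where the floor is an intensity of 58 to which all lower values were raised before taking log2. Esrrb and Rex2 of the same marker list were dim, and each was above the floor in 16 arrays. Of the 44 probe sets 40 passed the filter on dim probe sets, 17 for S phase, 16 for mitosis, 4 for G1 and 3 for inhibitors, and every one of the 35 genes kept at least 1 of them. Those that did not pass were the second probe sets of Cdk4, Mcm3, Rrm1 and Cdkn1b. Changes are given as log2 changes ± SE from limma with the adjusted p over the 9643 probe sets kept, and a probe set is called when that p is under 0.05. Nothing in the labels says that duplicate arrays came from separate cultures, so the p-values reflect the spread of these samples alone, and precision is limited by how few arrays there are. In such bulk RNA a smaller number of cycling cells and less RNA per cell cannot be told apart.

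In E100 cells with SRF-VP16, 36 of the 40 probe sets had changes below 0, against 58.1% of all probe sets, and 2 were called lower. Mki67, which encodes the Ki-67 protein that coats mitotic chromosomes and marks cycling cells, fell 2.65-fold, and Top2a, the topoisomerase that untangles sister DNA before chromosomes separate, fell 2.55-fold. These 2 were the members called in E100, against 0.425% of all probe sets called lower there. In E81 cells, which carry the same -/- label, 0 members were called (limma, either direction), against 1.01% of all probe sets, and 0 reached an unadjusted p under 0.05 as lower, against 1.28% of all. With E81 and E100 averaged, Mki67 was the single member called lower, against 0.342% of all probe sets, and 9 of the 40 had an unadjusted p under 0.05 as lower, against 4% of all.

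Mki67 (99457_at) was read at 2323 and 2084 in the SRFdM-VP16 arrays of E100 and at 1079 and 639 in its SRF-VP16 arrays. In E81 it was read at 2048 and 2160 with SRFdM-VP16 and at 1673 and 1318 with SRF-VP16. All 4 SRF-VP16 arrays of the -/- lines thus lay below all 4 SRFdM-VP16 arrays, a pattern that 1.13% of all probe sets showed and that Mki67 alone showed among the members. The log2 change was -0.95 ± 0.20 in the -/- lines (95% interval -1.40 to -0.51, adjusted p = 0.022), -1.41 ± 0.29 in E100 (adjusted p = 0.031) and -0.50 ± 0.29 in E81 (adjusted p = 0.475). The call in the -/- lines was lost when any of 5 of the 8 arrays compared was left out, with an adjusted p of 0.053 without E81 SRFdM-VP16 replicate 1, 0.091 without E81 SRF-VP16 replicate 2, 0.079 and 0.055 without replicates 1 and 2 of E100 SRFdM-VP16, and 0.067 without E100 SRF-VP16 replicate 2 (limma). The call in E100 was lost without either SRFdM-VP16 array of E100 (adjusted p = 0.160 and 0.121) and without its SRF-VP16 replicate 2 (adjusted p = 0.192).

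The control levels of Mki67 were also compared between lines. It was read at 2126 and 2928 in E81 vector arrays and at 2551 in the E100 vector array, but at 1366 and 1277 in wild-type vector arrays. Every control array of the -/- lines lay above every control array of wild type, and how many of all probe sets had this order was not counted. The control arrays of E99 ran from 1362 to 1900 and overlapped those of wild type, which reached 1473. The difference between the -/- lines and wild type was 0.85 ± 0.18 with both control plasmids averaged (adjusted p = 0.156, limma), not past the threshold. With SRF-VP16, E100 fell to 1079 and 639, which overlaps the 1148 and 849 of wild type with SRF-VP16.

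Top2a (99578_at) was read at 3982 and 3584 with SRFdM-VP16 in E100 and at 1951 and 1128 with SRF-VP16, so the groups did not overlap. In E81 the SRFdM-VP16 arrays at 2562 and 4136 enclosed the SRF-VP16 arrays at 2606 and 2940. The change was -1.35 ± 0.29 in E100 (adjusted p = 0.037), -0.23 ± 0.29 in E81 (adjusted p = 0.837) and -0.79 ± 0.20 in the -/- lines (adjusted p = 0.058). With the vector of E100 at 4129, both SRF-VP16 arrays of E100 were below every other array of the series for Top2a. The share of all probe sets with that order was not counted. Its call in E100 was lost without any 1 of 9 arrays, 6 of them from E99 or E81, where the adjusted p was 0.051 to 0.057, and 3 from E100, where it was 0.142 to 0.230 (limma).

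**Figure D1:**
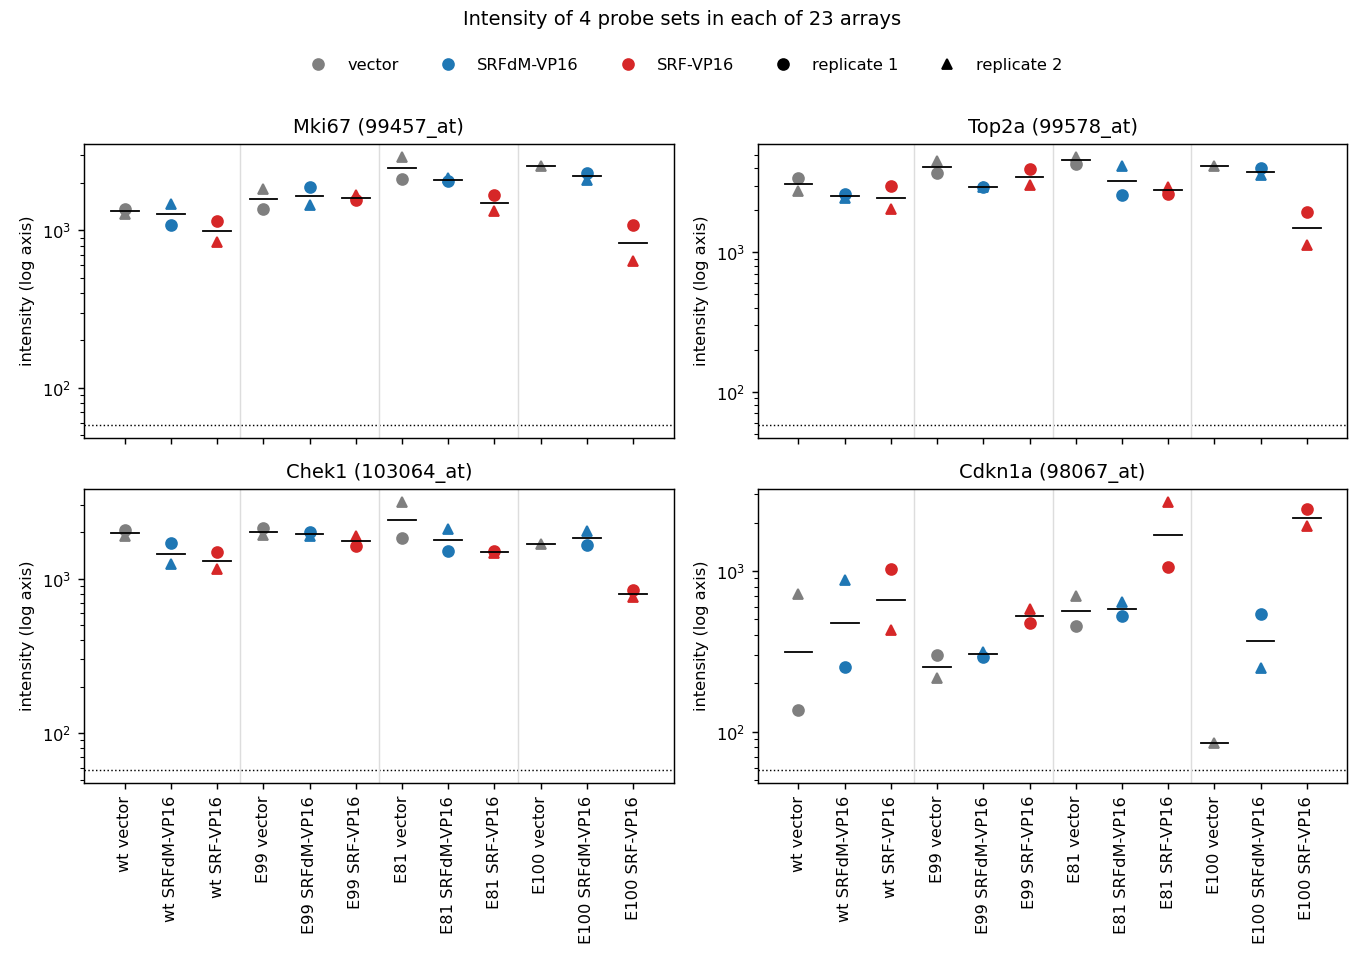
Intensity (log axis) of Mki67, Top2a, Chek1 and Cdkn1a (98067_at) in the 23 arrays, by line and plasmid, with circles for replicate 1, triangles for replicate 2, a bar at the group mean of log2 values and a dotted line at the floor of 58. Both E100 SRF-VP16 arrays are the lowest of all for Top2a (1128 and 1951), and for Mki67 (639 and 1079) wild-type SRF-VP16 replicate 2 at 849 lies between them, while Cdkn1a is high in the SRF-VP16 arrays of both -/- lines (1057 to 2688).

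The stretches before the starts of Mki67, Top2a, Kif11 and Mcm7 are shown. Mki67 and Top2a are the called members, and the spindle motor Kif11 and the helicase subunit Mcm7 were low in E100 without a call. They were also picked because they hold the elements through which mitotic and S-phase genes are usually switched on, so the matches in them follow from the choice. Each stretch is the 250 bases before a RefSeq transcription start (GRCm38.p6), 5' to 3' on the gene's strand, with matches in capitals. The motifs searched on both strands were CHR (TTTGAA or TTCGAA, the second being its own reverse complement), the CCAAT box (CCAAT, or ATTGG on the other strand), E2F (TTCCCGC or TTTGGCG or TTTCGCG) and the CArG box, which serum response factor binds. The stretches lie at chr7:135716380-135716629 (minus strand) for Mki67, chr11:99024190-99024439 (minus strand) for Top2a, chr19:37376132-37376381 (plus strand) for Kif11 and chr5:138171884-138172133 (minus strand) for Mcm7, the first listed of its 2 starts.
Mki67: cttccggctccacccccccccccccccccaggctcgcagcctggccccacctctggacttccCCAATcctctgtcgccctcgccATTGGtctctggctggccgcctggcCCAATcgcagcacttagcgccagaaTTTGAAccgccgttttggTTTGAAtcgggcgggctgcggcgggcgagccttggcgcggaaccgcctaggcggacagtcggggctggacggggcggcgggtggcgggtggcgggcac
Top2a: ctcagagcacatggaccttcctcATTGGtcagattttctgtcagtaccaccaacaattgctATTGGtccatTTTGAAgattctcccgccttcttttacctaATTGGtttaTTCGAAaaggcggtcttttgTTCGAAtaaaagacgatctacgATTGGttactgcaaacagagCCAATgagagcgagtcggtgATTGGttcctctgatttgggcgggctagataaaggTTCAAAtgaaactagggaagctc
Kif11: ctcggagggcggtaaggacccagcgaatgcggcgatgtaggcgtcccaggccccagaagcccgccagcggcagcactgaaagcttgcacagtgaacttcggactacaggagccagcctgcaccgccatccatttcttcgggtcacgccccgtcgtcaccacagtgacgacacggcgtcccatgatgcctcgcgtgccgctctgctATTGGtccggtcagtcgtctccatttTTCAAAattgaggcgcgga
Mcm7: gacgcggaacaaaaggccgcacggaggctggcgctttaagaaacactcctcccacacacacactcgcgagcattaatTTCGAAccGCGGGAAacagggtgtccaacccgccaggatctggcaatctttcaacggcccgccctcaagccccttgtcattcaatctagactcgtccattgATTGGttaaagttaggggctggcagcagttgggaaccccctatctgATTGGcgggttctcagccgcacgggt
The Mki67 stretch holds CHR matches beginning 116 and 98 bases before the start and CCAAT boxes at 188, 166 and 141. Top2a has CHR matches at 179, 140, 120 and 23 and 6 CCAAT boxes. The Mcm7 stretch holds an E2F match at 165 beside a CHR match at 173. A start was listed for 30 of the 35 genes, 32 starts in all. A CHR match stood before 7 of 12 mitotic starts (58.3%) and 3 of 16 S-phase starts (18.8%), against 17.1% of all 32851 RefSeq starts. A CCAAT box stood before 83.3% and 68.8% of them against 33.8% of all, and an E2F match before 8.33% and 43.8% against 5.58% of all. The mitotic members Birc5 and Mad2l1 had neither a CHR nor a CCAAT match. No CArG box match was found before any of these 32 starts, against 1.47% of all. A match describes the letters of this window and was not tested for binding.

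No S-phase probe set was called in E100 or in E81 (0 of 17 in each, limma). In E100, 9 of 17 S-phase probe sets and 12 of 16 mitotic probe sets had an unadjusted p under 0.05 as lower, 22 of all 40 members, against 8.18% of all probe sets. Both SRF-VP16 arrays lay below both SRFdM-VP16 arrays for 28 of the 40, 13 of them for S phase and 14 for mitosis, against 28.6% of all. The median change in E100 was -1.03 for S phase and -0.96 for mitosis, against -0.14 for all probe sets and -0.32 for those with a mean intensity over 1000. Set against the median of all probe sets, the median of the 40 members in E100 stood at -0.78, at -0.74 after quantile normalization and at -0.79 after dividing by array medians.

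Among helicase and checkpoint genes, Chek1 (103064_at), the kinase that halts the cycle when replication stalls, was read in E100 at 1659 and 2030 with SRFdM-VP16 and at 840 and 760 with SRF-VP16. Its change of -1.20 ± 0.27 just missed the threshold (adjusted p = 0.0503), and in E81, where SRFdM-VP16 gave 1498 and 2083 and SRF-VP16 gave 1510 and 1458, it was -0.25 ± 0.27 (adjusted p = 0.780). Chek1 was lower in E100 with SRF-VP16 than in any of the other 21 arrays. How many of all probe sets were lowest in these arrays was not counted, but 28.6% had both SRF-VP16 arrays of E100 below both SRFdM-VP16 arrays. In the -/- lines together its change was -0.73 ± 0.19 (adjusted p = 0.063).

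The MCM subunits form the ring that opens DNA at the fork. Mcm7 (93356_at) was read in E100 at 7272 and 7364 with SRFdM-VP16 and at 4839 and 2638 with SRF-VP16. In E81 it was read at 5631 and 6165 against 6605 and 6041. Its change was -1.03 ± 0.28 in E100 (adjusted p = 0.112) and 0.10 ± 0.28 in E81 (adjusted p = 1). Mcm3 (100062_at) stood at 4675 and 3639 against 1955 and 1342 in E100, and at 4760 and 3267 against 4510 and 2583 in E81. In wild type Mcm3 stood at 6113 and 2688 with SRFdM-VP16 and at 2105 and 2483 with SRF-VP16. It was the only S-phase gene with both SRF-VP16 arrays lower there, and the share of all probe sets with that order was not counted. The change of Mcm3 over the 4 lines was -0.65 ± 0.19 (adjusted p = 0.120, limma). Mcm5 (100156_at) was read in E100 at 15005 and 15400 against 11484 and 4675, so the size of its change, -1.05 ± 0.36 (adjusted p = 0.209), came mainly from replicate 2; in E81 it stood at 17661 and 18858 against 18456 and 15990. Mcm2 at -1.12 ± 0.36 and Mcm4 at -0.81 ± 0.42 in E100 were likewise not called, and Mcm6 was at or below the floor in 13 of 23 arrays, which leaves it without an order between groups.

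Of the other S-phase members, Pcna, the sliding clamp, was read in E100 at 14143 and 10476 against 10149 and 7537, a log2 change of -0.48 ± 0.27 that was not called. Cdk2 had a larger fitted change on its dim probe set 94411_at (-2.12 ± 0.79) than on 94412_at (-0.88 ± 0.30), and neither was called. Rrm2 at -1.37 ± 0.61, E2f1 at -1.54 ± 0.61, Tk1 at -1.19 ± 0.80, Cdc6 at -0.90 ± 0.72, Cdc45 at -0.61 ± 0.34 and Rrm1 at -0.57 ± 0.62 were below 0 in E100 without a call, and E2f1 had 1 SRF-VP16 array under the floor. Ccne1, the cyclin partner of Cdk2, was at -0.15 ± 0.85 in E100 and 0.43 ± 0.85 in E81.

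All 16 mitotic probe sets were below 0 in E100, as were 58.1% of all probe sets and 72.1% of those with a mean intensity over 1000. Kif11 (99541_at), the motor that pushes spindle poles apart, was read in E100 at 2549 and 3356 with SRFdM-VP16 and 1288 and 1655 with SRF-VP16. In E81 it was read at 1590 and 3057 against 1730 and 1838. Its change was -1.002 ± 0.39 in E100 and -0.65 ± 0.27 in the -/- lines (adjusted p = 0.291 and 0.302). Birc5 (101521_at), survivin of the chromosomal passenger complex, was read in E100 at 7980 and 5645 against 4678 and 1936, and in E81 at 3696 and 5682 against 4550 and 3381, so only the E100 groups were separate. Its change was -1.16 ± 0.40 in E100 (adjusted p = 0.224). Ccnb2, a cyclin of Cdk1, stood at 13662 and 12471 against 8932 and 5008 in E100, a change of -0.96 ± 0.30 (adjusted p = 0.166), and at 0.23 ± 0.30 in E81.

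The mitotic kinases Aurkb and Plk1 had the largest fitted decreases of the mitotic members in E100, with replicate 2 far below replicate 1. Aurkb was read in E100 at 2799 and 1416 with SRFdM-VP16 and at 1222 and -431 with SRF-VP16. Its change of -2.90 ± 1.19 therefore depends on the floor. Plk1 (101350_g_at) went from 3906 and 2852 to 2611 and 238, a change of -2.08 ± 0.84, and its probe set 93099_f_at, of a class that can bind related transcripts, gave -0.93 ± 0.54. Neither was called. Cdc20, the activator of the anaphase-promoting complex, had the smallest mitotic change, -0.40 ± 0.21. Bub1 (97095_at), a dim probe set of a spindle checkpoint kinase, was read in E100 at 81 and 112 against -36 and 1, and in E81 at -235 and 68 against 41 and -13, while the brighter 104097_at gave -1.17 ± 0.63 in E100 and 0.77 ± 0.63 in E81. The remaining mitotic members Ccna2, Ccnf, Cdk1, Aurka and Mad2l1 lay between -0.96 and -0.71 in E100 and between 0.01 and 0.28 in E81, none of them called.

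**Figure D2:**
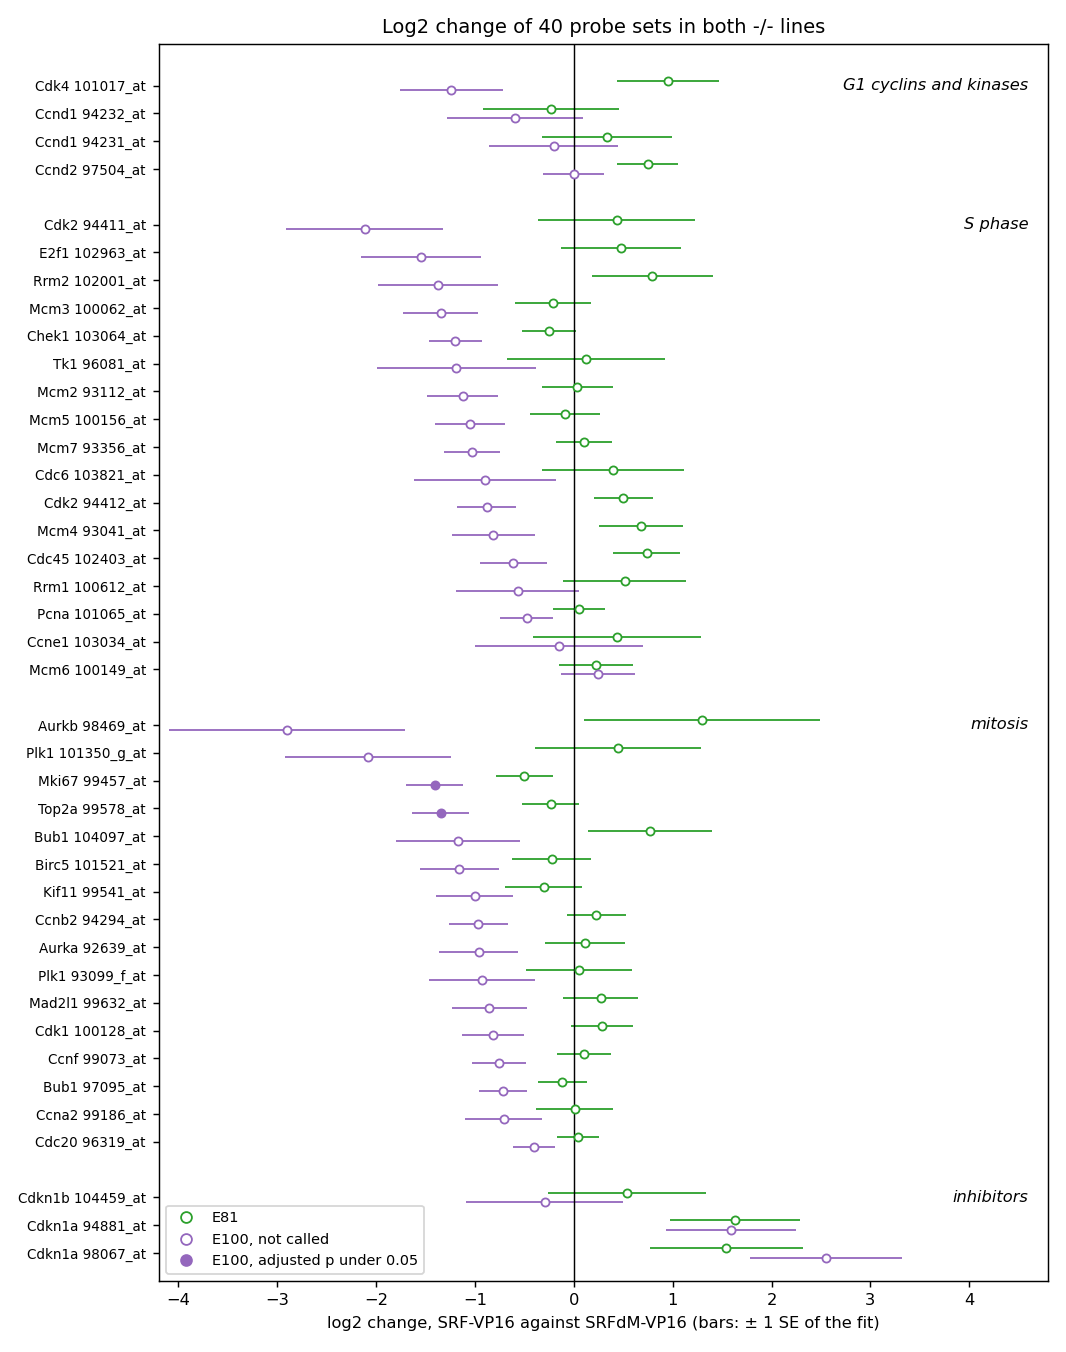
Log2 change from SRFdM-VP16 to SRF-VP16 for the 40 probe sets kept, in E81 (green) and E100 (purple), with bars of 1 SE of the fit and filled points where the adjusted p is under 0.05. In E100 all 16 mitotic and 16 of 17 S-phase probe sets lie below 0 and the filled ones are Mki67 and Top2a, while in E81 31 of the 40 points lie above 0, none of them called, and the Cdkn1a points lie above 0 in both lines.

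E100 SRF-VP16 replicate 2 was lower than replicate 1 for most members. The per-array median of the S-phase probe sets, each taken relative to its mean over 23 arrays, was -0.32 in replicate 1 and -1.23 in replicate 2, and that of the mitotic probe sets was -0.20 and -0.9998. Within replicate 1 alone the members' median difference from SRFdM-VP16 was -0.60, with 35 of 40 below 0, against -0.02 for all probe sets, and within replicate 2 it was -1.10, with 36 of 40 below 0, against -0.16. Without E100 SRF-VP16 replicate 2 the median change was -0.50 and 0 members were called by limma, with 6 at an unadjusted p under 0.05 as lower. Without replicate 1 the median was -1.27 and 9 members were called, and without either SRFdM-VP16 array of E100 0 were called, with 14 at an unadjusted p under 0.05 as lower. In the -/- lines together 3 members were called without E100 SRF-VP16 replicate 1, which were Mcm5, Mki67 and Top2a.

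The S-phase and mitotic medians were compared within each array. The S-phase median minus the mitotic median of an array ran from -0.34 to 0.35 over the 23 arrays, and the 2 arrays of a group differed in it by up to 0.55. In the SRF-VP16 arrays of E100 it was -0.12 and -0.23, against -0.01 and -0.16 with SRFdM-VP16. In those of E81 it was 0.27 and 0.18, against 0.23 and -0.32 with SRFdM-VP16, so the groups overlapped in both lines.

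**Figure D3:**
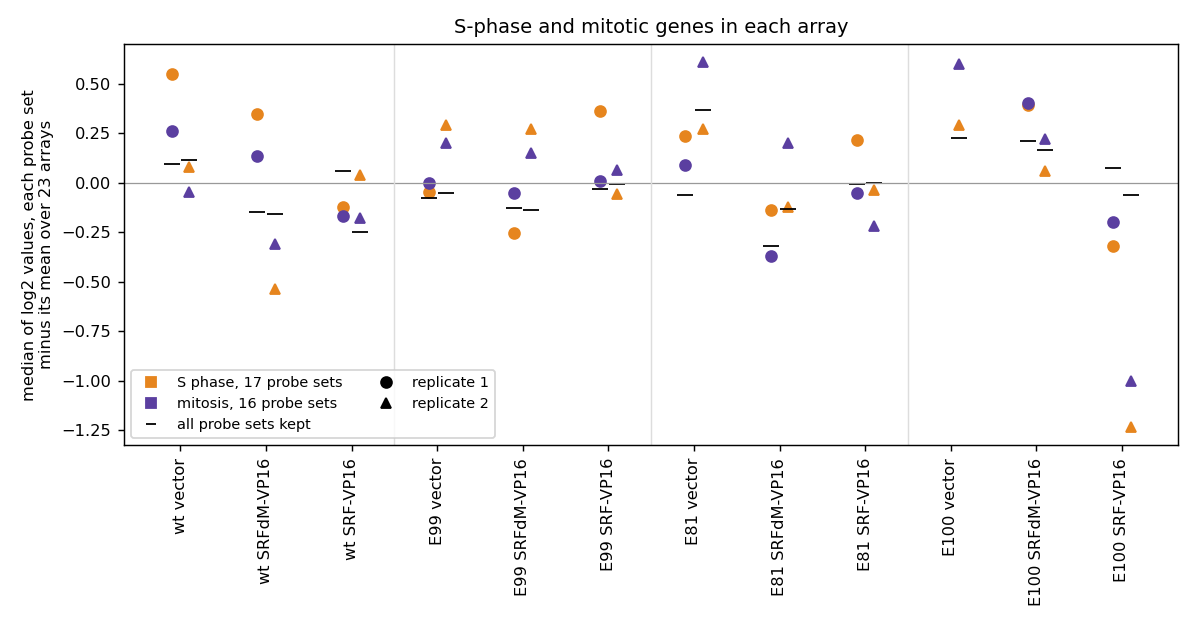
Median log2 value of the 17 S-phase (orange) and 16 mitotic (purple) probe sets in each of the 23 arrays, each probe set taken relative to its mean over all arrays, with a dash for the median of all probe sets kept. E100 SRF-VP16 replicate 2 alone stands apart, at -1.23 for S phase and -0.9998 for mitosis, while replicate 1 at -0.32 and -0.20 lies within the range of the other groups, -0.53 to 0.61.

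The sums of marker lists also differed in the same arrays, with most of the rises in a few keratin and matrix genes. The summed intensity of the 14 ES cell marker probe sets (13 genes of 13) was 96881 and 121174 with SRFdM-VP16 in E100 and 39692 to 52962 with SRF-VP16, and 58282 to 88830 against 58735 to 67068 in E81. The trophoblast list (9 of 10 genes, 11 probe sets) summed to 2272 to 2625 against 15198 to 25915 in E100 and to 1236 to 1456 against 11022 to 11090 in E81. The trophoblast-defining Hand1, Tpbpa and Cdx2 were above the floor in 1, 3 and 8 of 23 arrays, and 2 of the 3 with Tpbpa were the SRF-VP16 arrays of E100, at 153 and 235 against -196 and -165 with SRFdM-VP16. Eomes (the brighter of 2 probe sets) and Plac1 (likewise) were above it in 20 and 23 arrays. In E100 Eomes was read at 267 and 305 against 239 and 266, and Plac1 at 576 and 998 against 1280 and 1132. In E81 Eomes was read at 40 and 72 against 222 and 121, and Plac1 at 611 and 879 against 1508 and 1270. Most of the trophoblast sum with SRF-VP16 in the -/- lines came from the keratins Krt8, Krt18 and Krt7. Krt8 was read in E100 at 1047 and 616 against 12603 and 5000, and Krt18 at 161 and 357 against 8732 and 6649. Krt18 reached 11458 in wild type with SRF-VP16. The primitive endoderm list (13 genes, 19 probe sets) summed to 6898 to 12157 against 14823 to 33635 in E100. In E81 it summed to 4137 to 4352 against 17483 to 20993. Most of that sum with SRF-VP16 in the -/- lines came from Col4a1, Col4a2 and Sparc. Col4a1 was read in E100 at 4204 and 1411 against 14705 and 5250. Foxa2 was at the floor in all 23 arrays. Gata4 of this list was lower, at 520 and 516 against 279 and 198 in E100. In E81 Gata4 stood at 706 and 711 against 423 and 636. Gata6, on the probe set with its highest reading, overlapped in E100 (333 and 75 against 420 and 256). In E81 Gata6 was higher (37 and 3 against 95 and 155). The fibroblast list (10 of 13 genes) gave 1199 to 1363 against 1315 to 1348 in E100 and 848 to 893 against 1043 to 1077 in E81. High sums also occurred in wild type without SRF-VP16. There the trophoblast list summed to 2344.2 to 16453 with vector and 2400 to 14498 with SRFdM-VP16, against 12517 to 21420 with SRF-VP16. The primitive endoderm list summed there to 3924.5 to 12597 with vector and 4058 to 10394 with SRFdM-VP16, against 8075 to 14179 with SRF-VP16. The part of any change of cell state in the lower cell cycle levels was not tested.

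The difference between the lines was tested directly. The SRF-VP16 effect in E81 minus that in E100 was above 0 for all 16 mitotic probe sets and for 16 of 17 S-phase probe sets, with a median of 1.08 over the 40 members. Of all probe sets 72.8% were also above 0, with a median of 0.52, and of those with a mean intensity over 1000 it was 91.0%, with a median of 0.75. At an unadjusted p under 0.05 as higher stood 17 of the 40, against 9.44% of all, and 0 of the 40 were called by limma, against 0.145% of all. Set against the median of all probe sets, the members' median difference was 0.56 as deposited, 0.48 after quantile normalization and 0.26 after division by the median. At this depth of replication no single member was shown to differ between the 2 -/- lines. Cdk4 gave an example, at 1057 and 3247 against 3514 and 3667 in E81 and at 4356 and 4032 against 1713 and 1839 in E100, with a difference of 2.19 ± 0.73 (adjusted p = 0.409, limma). Its 1057 was the lowest of the series and came from E81 SRFdM-VP16 replicate 1, the array that stood apart. Cdk4, Rrm2, Bub1 and Cdk2 were called without E81 SRFdM-VP16 replicate 2, which left only the array that stood apart in that group. Ccnd2 was called without E81 SRF-VP16 replicate 2, and Plk1 without E100 SRF-VP16 replicate 1. Each of these fits left 1 array in a group.

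E81 itself was sensitive to array scaling. The members' median change there was 0.25, the same as the 0.25 of all probe sets, but it was -0.18 after quantile normalization and -0.54 after division by the median, where all probe sets stood at -0.18 and Mki67 was called. Mki67 was the only member whose E81 arrays with SRF-VP16 lay below both with SRFdM-VP16, against 6.88% of all probe sets. Within replicate 1 of E81, whose SRFdM-VP16 array was the one that stood apart, the members' median was 0.46 against 0.24 for all probe sets, and within replicate 2 it was -0.13 against 0.06. The dim Bub1 97095_at was called in E81 without SRFdM-VP16 replicate 2, which left only the array that stood apart in that group. Ccnd2 was called there without SRF-VP16 replicate 2.

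The inhibitor Cdkn1a, which encodes p21, had changes above 0 in both -/- lines, not past the threshold. Its probe set 94881_at was read at 580 and 1220 with SRFdM-VP16 and at 2108 and 3219 with SRF-VP16 in E81, and at 933 and 1006 against 4058 and 2081 in E100. Its probe set 98067_at was read at 525 and 638 against 1057 and 2688 in E81, and at 541 and 249 against 2415 and 1914 in E100. Both probe sets had all 4 SRF-VP16 arrays above all 4 SRFdM-VP16 arrays, as had 4.93% of all probe sets, and both had an unadjusted p under 0.05 as higher, as had 9.42%. The changes in the -/- lines were 1.61 ± 0.46 (adjusted p = 0.097) and 2.05 ± 0.55 (adjusted p = 0.068), 3.05-fold and 4.13-fold, and were not called. In E99 both probe sets were also higher in both SRF-VP16 arrays, 968 and 1024 against 581 and 468 for 94881_at. They were among 8 member probe sets with that order in E99, and its share over all probe sets was not counted. The wild-type arrays overlapped, at 1985 and 819 against 695 and 1380. Cdkn1b, which encodes p27, changed by 0.12 ± 0.56 in the -/- lines.

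The G1 members showed no call. Ccnd1 had 2 probe sets, both overlapping between SRF-VP16 and SRFdM-VP16 in E81 and E100, with changes of 0.07 ± 0.46 and -0.42 ± 0.49 in the -/- lines. Ccnd2 exceeded the floor in 3 of 23 arrays.

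In wild type and E99 no member passed the test. SRF-VP16 against SRFdM-VP16 gave 0 called members in wild type (limma, against 0.0207% of all, with 1 member lower at an unadjusted p under 0.05) and 0 in E99 (against 0.0415% of all, with 1 member higher at an unadjusted p under 0.05). The members' median change as deposited was 0.05 in wild type and 0.02 in E99, against 0.04 and 0.11 for all probe sets. After division by the median it was -0.21 and -0.53, against -0.08 and -0.30 for all. Over the 4 lines 0 members were called, against 1.96% of all, with 5 lower at an unadjusted p under 0.05 and Mki67 closest at -0.57 ± 0.14 (adjusted p = 0.063). The effect in the -/- lines minus that in wild type had 0 called members, against 0.083% of all, and a median of -0.37 against 0.00.

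Levels without SRF-VP16 gave no call among the members. In the -/- lines against wild type, with control plasmids averaged, 0 members were called, against 0.083% of all probe sets, and Mki67 at 0.85 stood highest. In E81 against E100 0 members were called, against 0.788% of all; Cdc45 (-1.02 ± 0.27) and Bub1 97095_at (-0.76 ± 0.19) had the smallest p (adjusted p = 0.109 and 0.102). SRFdM-VP16 against vector gave 0 called members, against 0.799% of all, and 4 lower at an unadjusted p under 0.05, against 13.3% of all; Cdc45, a cofactor of the MCM helicase, was closest at -0.71 ± 0.18 (adjusted p = 0.085). The members' median was -0.27 for E81 against E100 and -0.21 for SRFdM-VP16 against vector, where all probe sets stood at -0.27 and -0.20. After dividing by array medians it was 0.40 and 0.36, where all probe sets stood at 0.20 and 0.25, so the sign follows the scaling of the arrays.

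The other genes of the pathway were described from wider lists. Of 40 probe sets for spindle, checkpoint and anaphase-promoting complex genes, 1 was called lower in the -/- lines and in E100, Mybl2, the B-Myb factor that works with MuvB on mitotic promoters. Mybl2 was read in E100 at 11242 and 15578 with SRFdM-VP16 and at 6994 and 3913 with SRF-VP16, and in E81 at 12761 and 10824 against 8655 and 8560. All 4 SRF-VP16 arrays lay below the SRFdM-VP16 arrays, with a change of -0.89 ± 0.20 in the -/- lines (adjusted p = 0.025) and -1.34 ± 0.28 in E100 (adjusted p = 0.033). Of 34 probe sets for origin licensing and the fork, 0 were called and 13 were lower in E100 at an unadjusted p under 0.05, among them Pola1 (-1.56 ± 0.37, adjusted p = 0.062), Pold1 (-1.34 ± 0.31, adjusted p = 0.054) and Mcm10 (-1.31 ± 0.33, adjusted p = 0.079). In E100 the median was -0.80 for this list, -0.73 for 14 probe sets of nucleotide supply and -0.75 for 8 of cohesin and condensin, with 0 called in each and 2 and 4 lower at an unadjusted p under 0.05 in the latter pair. Over all probe sets in E100, 0.425% were called lower and 8.18% had an unadjusted p under 0.05 as lower, so the 2 of 14 lie near that share. For 7 probe sets of p53 targets, 0 were called; Perp was at 1.92 ± 0.64 in the -/- lines (adjusted p = 0.172). Of 21 probe sets for other CDK inhibitors, the Rb family and E2F factors, 0 were called with SRF-VP16 in E81 or E100 and 1 was called between the controls of E81 and E100, Cdkn1c (p57), at 280 to 801 in E81 and 3945 to 5069 in E100, a difference of -3.38 ± 0.61 (adjusted p = 0.020).

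A further difference ran within the groups. The first component of the residuals from the group means, computed over probe sets that are not members and holding 32.4% of their variance, was used to order the 2 arrays of each of the 11 duplicated groups. Residuals of 2 arrays from their own mean are equal and opposite, so any such component places 1 array of each group on each side, and this says nothing about line or plasmid. Ccne1 was read at 3060 to 5013 in the 11 arrays of the first side and at 1346 to 2313 in the 11 of the second, with no overlap. Tk1, Cdc6, Rrm1 (100612_at), Pcna and Aurkb were also higher on the first side in 11 of 11 groups. Kif11 and Cdkn1b (104459_at) were higher on the second side in 11 of 11, with Cdkn1b at 576 to 1528 against 1456 to 3160. Mki67 and Top2a had no such order, being higher on the first side in 5 and 6 of 11 groups. By loading on the component, Kif11 stood at percentile 83.3 of all probe sets kept and Pcna at percentile 15.3, neither at an extreme. How many of all probe sets had the same order in 11 of 11 groups was not counted. The order is thus not shown to be particular to these members. The sides were read from these arrays and are not groups of the study, so no test is given.

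**Figure D4:**
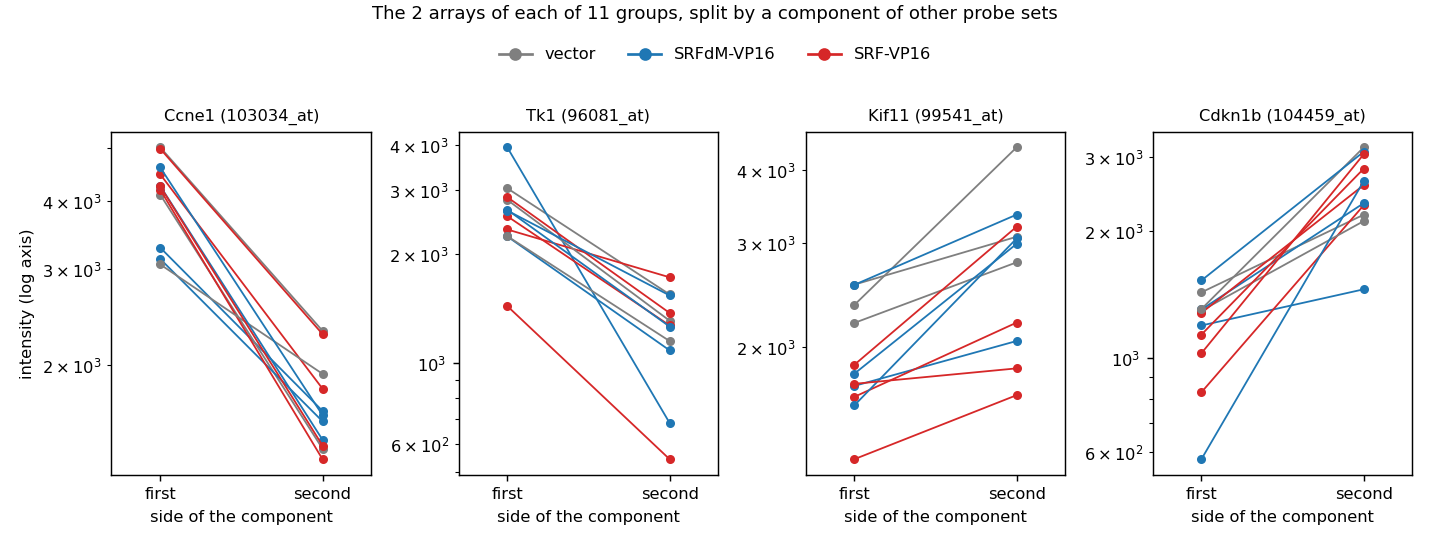
Intensity (log axis) of Ccne1, Tk1, Kif11 and Cdkn1b in the 2 arrays of each of 11 groups, joined by a line and coloured by plasmid, on the first and second side of a component computed from other probe sets. Ccne1 is at 3060 to 5013 on the first side and at 1346 to 2313 on the second, lower there in all 11 groups, and Cdkn1b is higher there in all 11.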

How the data were processed

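Total RNA of 23 arrays in 12 groups was analysed. The authors deposited intensity on a linear scale for each probe set; the sources used here do not give the software, background correction or scaling. Of these deposited intensities 29.1% were at or below 0. All value columns were matched to samples, and 66 control probe sets were left out. The filter asked for a value over the array's own 40th percentile in at least 2 arrays, which 9643 of 12436 probe sets had. Values below the floor, the 40th percentile of all values (58), were raised to it, and log2 was taken. limma 3.58.1 in R 4.3.3 fitted 1 mean per group over all arrays, with a trend in intensity, 11 residual degrees of freedom, tests on both sides and Benjamini-Hochberg adjustment at 5%. The procedure was tested on simulated data. Probe sets of 1 gene were never averaged, and levels were not compared between probe sets. Symbols came from the platform annotation, and promoter sequences from RefSeq (GRCm38.p6).

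Members and lists were chosen with earlier results of these data known. Every member with a probe set of its own is named. Array values are given for members called in any comparison, for those with an unadjusted p under 0.05 in the -/- comparison, and for others where a result turns on them, the last chosen after their values were seen; in the wider lists, up to 4 genes with the smallest adjusted p in the -/- comparison. Same-numbered arrays were not paired by the data: deviations of 55 pairs of groups correlated from -0.39 to 0.42. Alternatives changed scaling, floor, transformation, filter, replicate block, trend, arrays fitted, control plasmid and each array left out. A residual component as covariate, both controls averaged, and leaving out E81 SRFdM-VP16 replicate 1 with E100 SRF-VP16 replicate 2 (the lowest median correlations, 0.878 and 0.900) were chosen after seeing the data.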

Additional observations from a re-analysis of the deposited data

How the results depend on the processing

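The changes of Mki67, Top2a, Chek1, Kif11, Mcm3 and Cdkn1a (7 probe sets) in the -/- lines and in E100 kept their direction under every alternative run for them. Counts are of called members. In the -/- lines (1 as reported) they were 5 with quantile normalization, 4 with division by the array median, 2 with a floor at the 60th percentile, 2 with a filter at the 60th percentile, 0 with only the arrays compared, 4 with vector as the control, 7 with the residual component as a covariate, 5 with both controls averaged, and 0 to 3 when each array was left out. In E100 (2 as reported) they were 4 with quantile normalization, 0 with division by the median, 0 with the inverse hyperbolic sine, 0 with a filter at the 60th percentile, 0 with only the arrays compared, 1 without the intensity trend, 1 with vector as the control, 5 with the residual component, 6 with both controls averaged, 0 without E81 SRFdM-VP16 replicate 1 and E100 SRF-VP16 replicate 2 together, and 0 to 9 when each array was left out. In E81 (0 as reported) division by the median gave 1 and leaving out arrays 0 to 1. Over the 4 lines (0 as reported) quantile normalization gave 2, division by the median 5, vector as the control 4, the residual component 4, both controls averaged 3, and leaving out arrays 0 to 1 (Mcm3 without wild-type SRFdM-VP16 replicate 2, Ccnd2 without E81 SRF-VP16 replicate 2, Mki67 without E100 SRF-VP16 replicate 1). Without a filter Rrm1 97644_at was called in -/- against wild type, in E81 against E100 and in SRFdM-VP16 against vector. It exceeded the floor of 58 only in the single E100 vector array, at 60, so these calls rest on 1 dim value. With the residual component Cdc45 alone was called in SRFdM-VP16 against vector. Leaving out arrays gave 0 to 4 for the difference between E81 and E100, 0 to 1 for the -/- lines minus wild type (Ccnd2 without E81 SRF-VP16 replicate 2) and 0 to 1 for E81 against E100 (Bub1 without either wild-type SRFdM-VP16 array or E81 vector replicate 2). With the replicate block, 1 member was called in the -/- lines and 1 in E100, where Top2a was lost; same-numbered arrays share only a number (29 of 55 pairs of groups correlated over 0.1 and 24 under -0.1). Over all probe sets the -/- comparison gave 272 calls, 33 of them lower, against 109 of 347 lower with quantile normalization and 121 of 288 with division by the median; the residual component gave 576, both controls averaged 414 and only the arrays compared 112. E100 gave 114 calls, against 267 with the residual component, 202 with both controls averaged, 178 with quantile normalization, 41 with the inverse hyperbolic sine, 58 with the stricter filter and 0 with only the arrays compared. E81 gave 97, against 438 with the residual component, 168 with the inverse hyperbolic sine, 58 without a filter and 0 with only the arrays compared. Leaving out single arrays moved these counts to 194 to 514 in the -/- lines (highest without E81 SRFdM-VP16 replicate 2), 48 to 819 in E81 (lowest without E81 SRFdM-VP16 replicate 1, highest without its replicate 2) and 80 to 283 in E100 (highest without E100 SRF-VP16 replicate 1), and the shares of all probe sets called move with them. Over the settings other than left-out arrays, the calls over all probe sets reached 12 in wild type (2 as reported), 10 in E99 (4), 463 over the 4 lines (189), 28 for the difference between E81 and E100 (14), 19 for the -/- lines minus wild type (8), 82 for -/- against wild type (8), 155 for E81 against E100 (76) and 179 for SRFdM-VP16 against vector (77), the last falling to 1 with quantile normalization or division by the median. Mki67 was called in 30 of 37 other settings in the -/- lines and 28 of 37 in E100, and Top2a in E100 in 19 of 37. Values near the floor set what the arrays can resolve.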
